A study of Homo sapiens with 16 samples.

Results

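The genes described here are 10 markers of the primitive streak and of the mesendoderm that leaves it: T (brachyury), MIXL1, EOMES, KDR, SOX17, GATA4, GATA6, TBX6, MESP1 and HAND1. They were chosen by name, as the rows of the authors' deposited table whose gene symbol is one of these, and all 10 were found among 23284 genes. RNA was sequenced from WA01 human embryonic stem cells during neural crest induction, and the study asked how editing of FOXB1, a forkhead transcription factor, alters that course. All groups were plated at 20000 cells per cm2 on Matrigel and received 3 µM of CHIR99021, a GSK3 inhibitor that activates WNT signalling, with the ROCK inhibitor Y-27632 (10 µM) at the start. The edited lines were made with CRISPR/Cas9 and a single guide RNA aimed at the start codon of FOXB1, and are called sgRNA-Het and sgRNA-KO. The groups were wild type, Het and KO at day 3, labelled pre-neural crest, and the same at day 5, labelled neural crest. Het and KO have 2 libraries each per day and are 1 line each, so an effect of the genotype and a property of the line cannot be told apart. Wild type is 1 group per day in the table, while the labels list 4 wild-type libraries per day from the isogenic lines isoWT1 and isoWT2.

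The streak is the region of the early embryo where epiblast cells ingress to form mesoderm and endoderm. WNT and NODAL signals switch on T, MIXL1 and EOMES in it, after which SOX17 and the GATA factors mark endoderm, and KDR, TBX6, MESP1 and HAND1 mark branches of mesoderm. Neural crest arises from ectoderm, and induction by a GSK3 inhibitor uses the same WNT pathway that drives pluripotent cells into the streak.

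The table gives 1 level per gene and group, as FPKM, in which fragments are scaled to transcript length and to the size of the library, so that it is a level per length. It holds no value per library, so overlap between replicates could not be read, and depth is unknown. A gene was called, and is written here as having risen or fallen, where its deposited q-value in the authors' deposited table lay under 0.05. The standard error (SE) beside a log2 change is the one that the deposited test score implies. In bulk RNA, fewer cells of a type and less RNA per cell cannot be told apart. The FOXB1 transcript measured 18.3, 7.73 and 15.5 FPKM in wild type, Het and KO at day 3, and 5.51, 4.47 and 1.86 FPKM at day 5. Since a start-codon edit can leave the transcript in place, its level does not check the edit. Of 17 neural crest and border markers, 9, 13 and 16 reached 1 FPKM in wild type, Het and KO at day 3, and 12, 16 and 16 did at day 5. TWIST1 was under 1 FPKM in all 6 groups, and SOX10, FOXD3 and PAX7 were under 1 FPKM in wild type on both days.

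Promoter sequences are shown for the 4 members that reached 1 FPKM in any group, since the results turn on them. The RefSeq table (GRCh38.p14) matched 7 of the 10 members, T under its current symbol TBXT, and did not hold SOX17, GATA4 or MESP1. Each sequence is the 250 bases before the start site, read 5′ to 3′ on the strand of the gene. They lie at chr6:166168656-166168905 (minus strand) for T, chr1:226223414-226223663 (plus strand) for MIXL1, chr3:27722324-27722573 (minus strand) for EOMES and chr4:55125596-55125845 (minus strand) for KDR. Capitals mark matches to the motifs searched.
T promoter: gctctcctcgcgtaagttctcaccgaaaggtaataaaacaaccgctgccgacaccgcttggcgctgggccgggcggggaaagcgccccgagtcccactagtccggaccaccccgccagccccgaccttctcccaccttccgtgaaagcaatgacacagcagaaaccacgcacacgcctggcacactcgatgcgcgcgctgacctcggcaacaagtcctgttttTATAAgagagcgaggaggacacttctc
MIXL1 promoter: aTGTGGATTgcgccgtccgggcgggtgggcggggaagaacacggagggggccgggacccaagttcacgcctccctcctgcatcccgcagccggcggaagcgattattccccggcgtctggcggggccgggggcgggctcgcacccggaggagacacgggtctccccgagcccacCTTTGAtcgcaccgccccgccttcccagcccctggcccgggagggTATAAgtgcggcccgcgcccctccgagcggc
EOMES promoter: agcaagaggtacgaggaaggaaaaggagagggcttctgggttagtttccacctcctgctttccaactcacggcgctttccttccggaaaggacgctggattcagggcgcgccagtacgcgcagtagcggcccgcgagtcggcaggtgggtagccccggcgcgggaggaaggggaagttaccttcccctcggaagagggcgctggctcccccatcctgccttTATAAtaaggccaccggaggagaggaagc
KDR promoter: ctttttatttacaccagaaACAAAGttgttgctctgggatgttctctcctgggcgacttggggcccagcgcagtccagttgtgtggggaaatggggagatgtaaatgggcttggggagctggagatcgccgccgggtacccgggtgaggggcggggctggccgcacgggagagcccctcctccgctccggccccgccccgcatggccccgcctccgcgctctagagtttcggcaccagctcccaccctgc

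The motifs searched on both strands were CTTTGA and its variant CTTTGT for TCF/LEF factors, AGGTGT for T-box factors, AGATAA for GATA factors, TGTTTAC and its variant TGTTTGC for forkhead factors, CAGACA for SMAD proteins and AATCCACA for FOXH1. The TATA box was searched as well. The last was searched as TATAA on the gene's own strand between bases -40 and -20 and was added after the sequences had been read. A match describes the letters alone and is no sign of a bound site. MIXL1 had a TCF/LEF match at -76 to -71 and a FOXH1 match on the other strand at -249 to -242. KDR had 1 TCF/LEF match, on the other strand at -231 to -226. Over 35116 promoters in the table, 22.8% held a TCF/LEF match and 0.709% a FOXH1 match. TATAA stood at -27 in T, -31 in MIXL1, -29 in EOMES and -28 in HAND1, thus in 4 of the 7 promoters matched, while 3.91% of all promoters held it in that window. HAND1 also had a TCF/LEF match at -45 to -40, and GATA6 and TBX6 had no match to any motif. T-box, GATA, forkhead and SMAD matches, found in 9.57%, 9.17%, 6.09% and 13.6% of all promoters, were in none of the 7.

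At day 3 the streak genes were near silence in wild type and Het and were present in KO. T, the T-box factor that defines the streak (chr6:166571085-166582131 in hg19, as for all genes here), had 0.232 FPKM in wild type, 0.139 FPKM in Het and 1.29 FPKM in KO. MIXL1, a homeobox factor of the streak and early endoderm (chr1:226411382-226413513), stood at 0.219, 0.322 and 9.35 FPKM. EOMES, a T-box factor needed for endoderm and early mesoderm (chr3:27757885-27763785), stood at 0.0189, 0.0486 and 4.46 FPKM. For each of the 3, KO was the high group, and wild type and Het were both under 1 FPKM. KDR, the VEGF receptor that marks nascent lateral mesoderm and later endothelium (chr4:55944425-55991762), had 0.971 FPKM in wild type, 3.45 FPKM in Het and 13.1 FPKM in KO and was the only one of these 4 genes at 1 FPKM or more in Het.

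**Figure D1:**
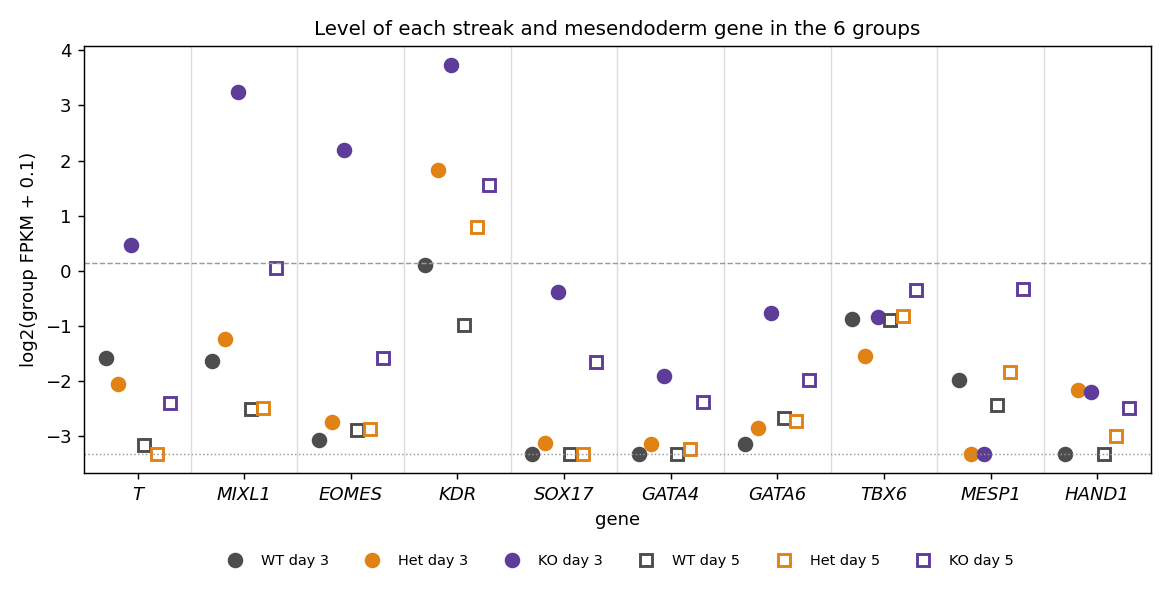
Level of each of the 10 genes as log2 of group FPKM plus 0.1 (vertical axis) in wild type (grey), Het (orange) and KO (purple) at day 3 (filled circles) and day 5 (open squares), 1 value per group with no replicate spread. The dashed line marks 1 FPKM and the dotted line a level of 0, and only T, MIXL1, EOMES and KDR pass 1 FPKM, with KO at day 3 on top for each.

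The deposited test did not call all of these differences. T rose in KO against wild type at day 3, 5.55-fold (log2 change 2.47, SE 0.91, q = 0.0105 in the authors' deposited table). KDR rose 13.5-fold (3.76, SE 0.53, q = 0.00126 in the authors' deposited table). MIXL1 was 42.7-fold apart (5.42, SE 1.24) but was not called, with p = 0.0935 and q = 0.333 in the authors' deposited table. EOMES was 236-fold apart (7.88, SE 1.84) and was not called, with p = 0.257 and q = 0.590 in the authors' deposited table. The deposited test scores of MIXL1 and EOMES were 4.37 and 4.28, and of 159 genes with a score of at least 4 in size in this comparison 17 (10.7%) were not called in the authors' deposited table. For MIXL1 and EOMES the score and the deposited p-value therefore give different readings, and values per library were not analysed here. With the authors' test scores read against a normal distribution and adjusted over the 14595 genes of the comparison, MIXL1 (adjusted p = 0.00163) and EOMES (0.00219) passed and T (0.213) did not. With changes centred and the SE scaled to the deposited p-values, MIXL1, EOMES, T and KDR all passed.

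The endoderm factors were low throughout. SOX17, an endoderm factor that also acts in blood vessels (chr8:55370494-55373456), was listed at 0 in wild type, 0.0145 FPKM in Het and 0.665 in KO at day 3. SOX17 rose in KO against wild type (q = 0.00126 in the authors' deposited table), with no fold since wild type is listed at 0. Of 22 tested genes listed at 0 in wild type in this comparison, 4 were called in the authors' deposited table. GATA4 (chr8:11561716-11617509) and GATA6 (chr18:19749415-19782227), zinc finger factors of endoderm and heart, were not tested by the authors in any comparison. At day 3 GATA4 was listed at 0 in wild type and stood at 0.0123 FPKM in Het and 0.164 in KO. GATA6 stood at 0.0126, 0.0379 and 0.490 FPKM in the same order. KO held the highest of the 3 levels for SOX17, GATA4 and GATA6, all under 1 FPKM.

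The later mesoderm factors were low as well. TBX6, a T-box factor of paraxial mesoderm (chr16:30097114-30103205), had 0.442 FPKM in wild type, 0.242 FPKM in Het and 0.457 FPKM in KO at day 3. MESP1, a factor of early cardiac mesoderm (chr15:90293097-90294540), stood at 0.153 FPKM in wild type and was listed at 0 in Het and KO. HAND1, a factor of extraembryonic and lateral mesoderm (chr5:153854531-153857824), was listed at 0 in wild type and stood at 0.122 FPKM in Het and 0.118 in KO. None of the 3 was tested at day 3, and none reached 1 FPKM in any group.

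Counted together, 5 of the 10 genes were tested in KO against wild type at day 3, and 3 rose and 0 fell. Across the 14678 genes that the authors' deposited table tests in this comparison, 4.34% rose and 5.17% fell. A gene this low in wild type enters the test through its level in KO, so the count over tested members is no support by itself. In KO, 9 of the 10 levels were higher than in wild type and 1 was lower. The median change of the 10 on log2(FPKM + 0.1) was 2.23, beside -0.02 over the 20302 genes with a level above 0 in either group. With a pseudocount of 1 in place of 0.1 the members' median was 0.65. The summed level of the 10 was 2.05 FPKM in wild type, 4.39 FPKM in Het and 30.1 FPKM in KO, of which KDR made up 47.4%, 78.6% and 43.6%. KO at day 3 was the highest of the 6 groups for 7 of the 10 genes, and for 15.9% of all 21077 genes with a level above 0.

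At day 5 KO held the highest of the 3 levels for each of the 10 genes, but only KDR reached 1 FPKM there. T stood at 0.0115 FPKM in wild type, was listed at 0 in Het and stood at 0.0895 in KO. MIXL1 stood at 0.0745, 0.0771 and 0.932 FPKM, and EOMES at 0.0351, 0.0355 and 0.234 FPKM. In these 3 genes wild type and Het were close to each other and KO stood above both. KDR stood at 0.404, 1.63 and 2.83 FPKM, lowest in wild type and highest in KO as at day 3. SOX17 was listed at 0 in wild type and Het and stood at 0.215 FPKM in KO, GATA4 at 0, 0.0060 and 0.0927 FPKM, and GATA6 at 0.0561, 0.0511 and 0.154 FPKM. TBX6 stood at 0.438, 0.464 and 0.682 FPKM, MESP1 at 0.0835, 0.180 and 0.695 FPKM, and HAND1 at 0, 0.0252 and 0.0787 FPKM. TBX6 and MESP1 were the only members with their highest level of the 6 groups in KO at day 5. That group was the highest for 23.7% of all 21077 genes with a level above 0.

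KDR rose in KO against wild type at day 5, 7.01-fold (log2 change 2.81, SE 0.68, q = 0.00126 in the authors' deposited table). MIXL1 (3.64, SE 2.15, q = 0.545 in the authors' deposited table) was not called. TBX6 (0.64, SE 0.89, q = 0.590 in the authors' deposited table) was not called either. Of 3 members tested, 1 rose and 0 fell, where 7.58% of the 14936 genes tested rose and 5.68% fell. MIXL1, low in wild type, enters this test through its level in KO, so this count too is no support by itself. All 10 levels were higher in KO, with a median change of 1.13 beside 0.06 over all genes above 0. The summed level was 1.10 FPKM in wild type, 2.46 FPKM in Het and 6.003 FPKM in KO.

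KDR was the only member tested in Het against wild type. KDR rose 3.56-fold at day 3 (log2 change 1.83, SE 0.56, q = 0.00126 in the authors' deposited table). At day 5 KDR rose 4.02-fold (2.01, SE 0.71, q = 0.00126 in the authors' deposited table). With the authors' test scores read against a normal distribution KDR passed on neither day (adjusted p = 0.0873 and 0.840). The counts were thus 1 risen and 0 fallen of 1 tested on each day. Over all genes tested, 1.68% rose and 4.63% fell at day 3, and 1.14% rose and 1.02% fell at day 5. At day 3, 7 of the 10 levels were higher and 3 lower in Het, with a median change of 0.24, and at day 5, 7 were higher and 2 lower, with a median of 0.07 over the 9 genes above 0. The medians over all genes were -0.03 and -0.01.

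Compared directly, KO stood above Het in T and KDR at day 3. T rose 9.23-fold (log2 change 3.21, SE 0.95, q = 0.0205 in the authors' deposited table). KDR rose 3.81-fold (1.93, SE 0.48, q = 0.00126 in the authors' deposited table). The other 3 tested members were not called, with MIXL1 at 4.86 (SE 1.48, q = 0.202), EOMES at 6.52 (SE 1.25, q = 0.167) and SOX17 at 5.52 (SE 3.02, q = 0.567) in the authors' deposited table. Of 5 members tested, 2 rose and 0 fell, where 2.3% of the 14624 genes tested rose and 0.54% fell. T, MIXL1, EOMES and SOX17 were low in Het and enter this test through their level in KO. The count is therefore no support by itself. Adjusted over this comparison alone, T did not pass (0.0928). This comparison uses the same KO libraries as that with wild type, so the 2 sets of values are not independent. At day 5, 0 of the 3 tested members were called by Cuffdiff, and 0 had an unadjusted p under 0.05 in the authors' deposited table. KDR then differed by 0.80 (SE 0.58, 95% interval -0.34 to 1.94, q = 0.259 in the authors' deposited table), MIXL1 by 3.59 (SE 1.83) and TBX6 by 0.55 (SE 1.00). In that comparison 5.55% of the 15000 genes tested rose and 2.51% fell.

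**Figure D2:**
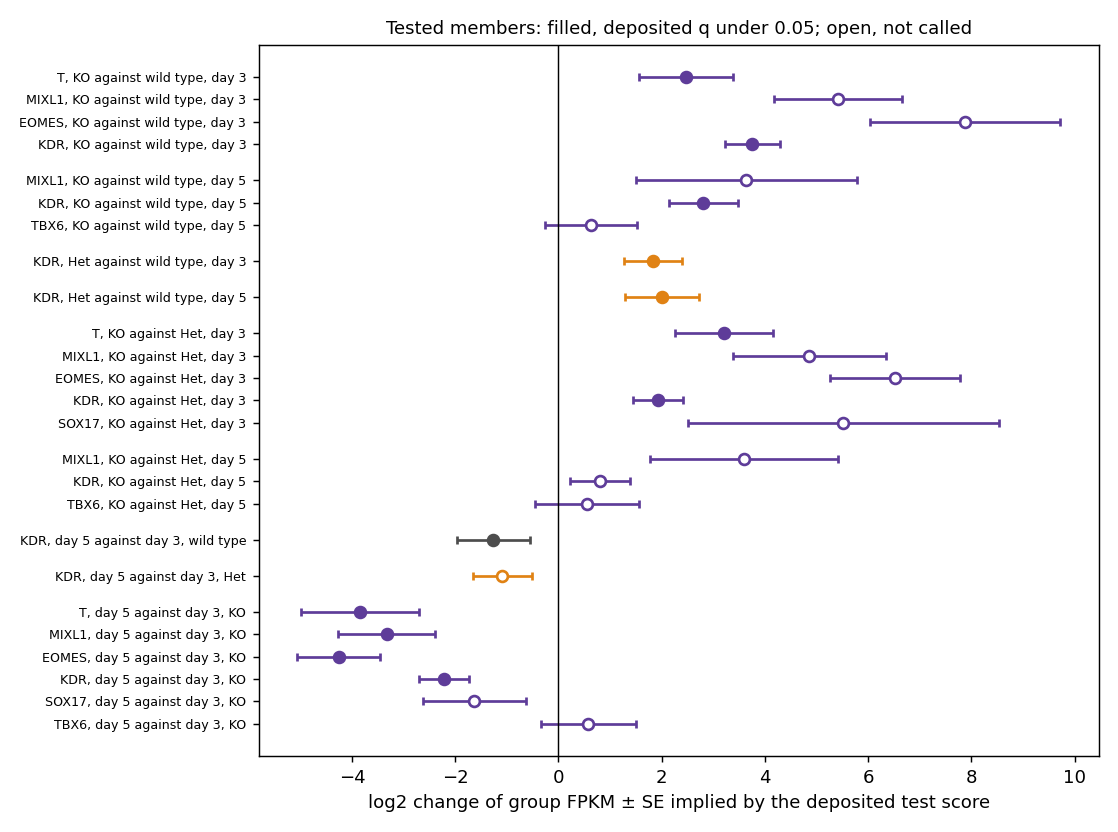
Log2 change of group FPKM (horizontal axis) with its implied SE (bars) for each tested member in each comparison, purple where KO is the second group, orange for Het and grey for wild type. Filled points were called at a deposited q under 0.05 and open points were not, and MIXL1 and EOMES at day 3 are open although their changes are among the largest drawn. SOX17 in KO against wild type at day 3 has no fold and is not drawn.

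From day 3 to day 5 the streak genes fell in KO. T fell 14.4-fold, from 1.29 to 0.0895 FPKM (log2 change -3.85, SE 1.14, q = 0.0331 in the authors' deposited table). MIXL1 fell 10.0-fold, from 9.35 to 0.932 FPKM (-3.33, SE 0.94, q = 0.0210 in the authors' deposited table). EOMES fell 19.1-fold, from 4.46 to 0.234 FPKM (-4.26, SE 0.81, q = 0.00126 in the authors' deposited table). These 3 are the transcription factors of the streak itself, and each was called here whether or not it had been called against wild type. KDR, the receptor, fell 4.64-fold, from 13.1 to 2.83 FPKM (-2.22, SE 0.49, q = 0.00126 in the authors' deposited table). SOX17 (-1.63, SE 1.01, q = 0.176) and TBX6 (0.58, SE 0.92, q = 0.691) were not called in the authors' deposited table. Of 6 members tested, 0 rose and 4 fell, where 7.29% of the 14995 genes tested rose and 4.53% fell. T, MIXL1 and EOMES reached 1 FPKM in KO at day 3 alone and enter this test through that high start. The count over tested members is therefore no support by itself. Over the 10 genes, 2 levels were higher and 8 lower at day 5, with a median change of -1.25 beside 0.07 over all genes above 0.

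In wild type and Het only KDR was tested over time. In wild type KDR fell from 0.971 to 0.404 FPKM (log2 change -1.26, SE 0.71, q = 0.0196 in the authors' deposited table). The 95% interval from the SE ran from -2.65 to 0.12 and included 0, so this call rests on the deposited p-value. In Het KDR stood at 3.45 and then 1.63 FPKM (-1.09, SE 0.57, q = 0.108 in the authors' deposited table). The count for Het was 0 called of 1 tested by Cuffdiff, and 1 at an unadjusted p under 0.05 in the authors' deposited table. Over all genes tested, 11.2% rose and 10.4% fell in wild type, and 4.74% rose and 2.83% fell in Het. The members' median change was -0.47 over 7 genes in wild type and -0.16 over 10 in Het, beside -0.03 and 0.02 over all genes above 0.

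A difference between time courses was not shown for any member. The day 5 minus day 3 change of KDR in KO minus that in wild type was -0.95 (SE 0.86, 95% interval -2.64 to 0.74, adjusted p = 1.00 over 14409 genes, 2-sided normal test on the SE from the authors' scores). The same difference in Het was 0.18 (SE 0.91, 95% interval -1.60 to 1.96). For MIXL1 in KO it was -1.77 (SE 2.48). T and EOMES were too low in wild type for the authors' test and gave no SE. These differences share the wild-type groups. The fall of the streak genes in KO is therefore measured within KO and not shown to be peculiar to it.

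Ordered by level, KDR ran from KO at day 3 (13.1 FPKM) through Het at day 3, KO at day 5, Het at day 5 and wild type at day 3 to wild type at day 5 (0.404 FPKM). Neighbours at both ends of this order differed, KO from Het at day 3 and wild type between the days. In the middle, Het at day 3 did not differ beyond its error from KO at day 5 (log2 difference 0.29, SE 0.52, q = 0.759 in the authors' deposited table). Nor was Het at day 5 called against wild type at day 3 (0.74, SE 0.62, q = 0.265 in the authors' deposited table). MIXL1 and EOMES both ran from KO at day 3 to KO at day 5 and then Het at day 3. For MIXL1 the latter neighbours were not called (1.53, SE 1.64, q = 0.520 in the authors' deposited table). T ran from KO at day 3 to wild type at day 3, and its lower neighbours were not tested.

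Over the 6 groups MIXL1 and EOMES were the pair of members with the most alike patterns (Pearson r of log2(FPKM + 0.1) 0.97), and T and KDR the least alike of the 4 members above 1 FPKM (0.78). These are descriptions of 6 points that share libraries. Among 2375 genes with 1 FPKM in a group and a range of at least 2 on that log2 scale, the closest to EOMES were DKK4 (0.999), TDGF1 (0.994), TDGF1P3 (0.986), NANOG (0.983) and ETV3L (0.977). TDGF1P3 is a pseudogene copy of TDGF1, so reads may be split between the pair. DKK4, a secreted WNT inhibitor, was listed at 0 in wild type and Het on both days and stood at 6.74 FPKM in KO at day 3 and 0.179 at day 5. It was thus listed above 0 in KO alone, as SOX17 was at day 5, and rose at day 3 (q = 0.00126 in the authors' deposited table). NANOG, a pluripotency factor, had 1.03 FPKM in wild type, 0.797 FPKM in Het and 6.76 FPKM in KO at day 3, and at 0.798, 0.944 and 1.25 FPKM at day 5.

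The closest to MIXL1 were ETV3L (0.994), MAP1LC3C (0.991), ESRP1 (0.981), CER1 (0.980) and TDGF1 (0.979). For T they were LOC100505817 (0.996), PIK3R5 (0.991), UNC5B (0.989), KLHDC7A (0.989) and TUBA4A (0.987). TDGF1 and ETV3L thus stood among the 5 closest genes of both EOMES and MIXL1, and no gene was shared with T. KDR had TNFRSF11B (0.992), KLHL14 (0.988), KRT17 (0.986), CNTNAP2 (0.983) and PDE6B (0.978). TNFRSF11B, the decoy receptor osteoprotegerin, had the same order of groups as KDR, with 1.05 FPKM in wild type, 2.97 FPKM in Het and 12.2 FPKM in KO at day 3 and 0.547, 1.33 and 2.44 FPKM at day 5.

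**Figure D3:**
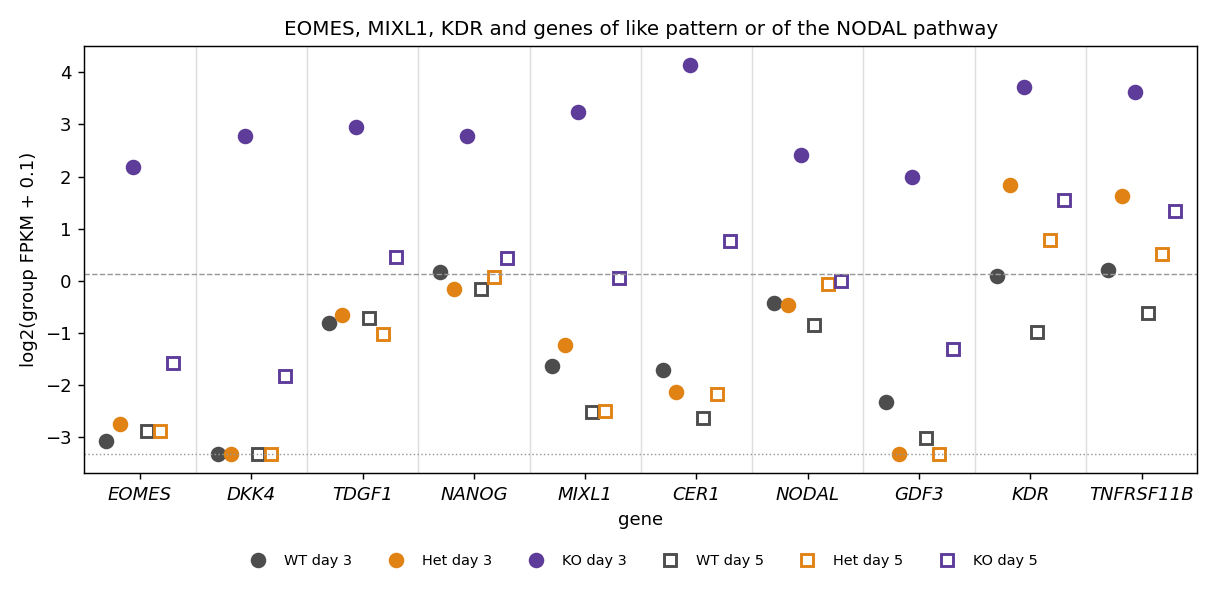
Log2 of group FPKM plus 0.1 (vertical axis) in the 6 groups for EOMES, MIXL1 and KDR beside genes of like pattern (DKK4, TDGF1, NANOG, CER1, TNFRSF11B) and the ligands NODAL and GDF3, with colours and symbols for line and day as in the plot of all members. In 8 of the 10 genes KO at day 3 stands apart from the other 5 groups, while KDR and TNFRSF11B step from wild type to Het to KO on both days.

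Other genes of the pathway came from lists of names. Those near 0 outside KO enter comparisons with KO through their level there, as members do. Counts over tested genes of these lists are thus no support by themselves. Among 15 other streak and organizer genes, 8 were tested in KO against wild type at day 3, of which 6 rose and 1 fell. Over all genes tested in this comparison, 4.34% rose and 5.17% fell. CER1, which binds and blocks NODAL and BMP ligands, rose from 0.206 to 17.5 FPKM (log2 change 6.41, SE 1.01, q = 0.00476 in the authors' deposited table). EVX1, a homeobox factor of the posterior streak, rose from a listed 0 to 0.853 FPKM (q = 0.00126 in the authors' deposited table). DKK1, a WNT inhibitor, rose from 0.952 to 8.66 FPKM, and OTX2, a factor of anterior epiblast and neural plate, from 10.97 to 63.4 FPKM. The median change of the list was 1.27, beside 2.23 for the 10 members. In Het 2 of 5 tested rose and 1 fell at day 3, with DKK1 at 5.02 and OTX2 at 41.5 FPKM among the rises. Over all genes tested in Het at day 3, 1.68% rose and 4.63% fell.

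Of the NODAL pathway, 16 of 17 names were in the table. At day 3, 15 were tested in KO against wild type, of which 3 rose and 1 fell, beside 4.34% and 5.17% of all genes tested. TDGF1, the NODAL co-receptor, rose from 0.467 to 7.62 FPKM (4.03, q = 0.00126 in the authors' deposited table). NODAL, the ligand, rose from 0.642 to 5.22 FPKM (3.02, q = 0.00126 in the authors' deposited table). FOXH1, the DNA-binding partner of SMAD proteins in this pathway, rose from 3.35 to 9.47 FPKM, and ACVR1B, a receptor, fell from 19.2 to 11.2 FPKM. The list's median change was 0.37. In Het 0 of 11 tested genes of the pathway were called by Cuffdiff on either day. On each day 1 had an unadjusted p under 0.05 in the authors' deposited table. Over all genes tested in Het, 1.68% rose and 4.63% fell at day 3, and 1.14% rose and 1.02% fell at day 5. A count of 0 of 11 is near those shares. From day 3 to day 5 in KO 1 of the 15 rose and 5 fell, beside 7.29% and 4.53% of all genes tested. GDF3, a NODAL-related ligand, fell from 3.90 to 0.301 FPKM, TDGF1 from 7.62 to 1.27 and NODAL from 5.22 to 0.893.

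Of 22 WNT, BMP and FGF signals and responses of the streak, 19 were tested in KO against wild type at day 3. Of these 8 rose and 2 fell, beside 4.34% and 5.17% of all genes tested. BMP4 rose from 0.153 to 9.55 FPKM and BMP2, also a ligand, from 1.53 to 23.2 FPKM. CDH1, the epithelial cadherin that cells lose on ingression, rose from 1.01 to 7.83 FPKM. In Het 6 of 19 rose and 1 fell, with BMP4 at 4.10, BMP2 at 14.9 and WNT3A at 3.45 FPKM among the rises. The shares over all genes tested in Het were 1.68% risen and 4.63% fallen. The median changes of this list were 0.52 in KO and 0.31 in Het.

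The lists of tissues that follow the streak gave smaller medians than the streak and organizer list. Of all genes tested in KO against wild type at day 3, 4.34% rose and 5.17% fell. Of paraxial mesoderm genes 0 of 4 tested rose in KO at day 3 and 1 fell, the Notch ligand DLL1, from 12.3 to 2.24 FPKM. DLL1 is also a gene of neural progenitors. Of lateral plate and cardiac genes 3 of 6 tested rose and 0 fell, ACTC1 from 3.10 to 30.7 FPKM, TNNT2 from 3.94 to 10.6 and PDGFRA from 0.290 to 0.881. Of definitive endoderm genes 3 of 9 rose and 0 fell, CXCR4 from 7.92 to 20.1 FPKM, FRZB from 8.52 to 15.8 and CLDN6 from 109 to 185. Of endothelial and blood genes, the tissue where KDR acts later, 1 of 12 rose and 3 fell. VWF rose from 1.13 to 3.64 FPKM, and the VEGF co-receptors NRP1 (9.26 to 1.17 FPKM) and NRP2 (104 to 63.2 FPKM) fell with EGFL7 (18.6 to 6.27 FPKM). Of 4 endothelial markers, PECAM1, CDH5 and ETV2 were under 1 FPKM in all 6 groups. TEK, the other marker, had 23.8, 27.7 and 29.3 FPKM in wild type, Het and KO at day 3 and was not called in KO. The medians of these lists were -0.01, 0.06, 0.61 and 0.08. In Het at day 3, in that order, 0 of 4 tested, 2 of 5, 1 of 9 and 1 of 12 rose. Those that fell numbered 1, 0, 1 and 3, beside 1.68% risen and 4.63% fallen of all genes tested. Het stood at 2.55 FPKM in DLL1, 22.3 in ACTC1, 6.75 in TNNT2, 0.832 in PDGFRA and 20.8 in CXCR4. It stood at 14.7 in FRZB, 68.6 in CLDN6, 2.36 in VWF, 2.84 in NRP1, 77.4 in NRP2 and 6.10 in EGFL7. In all but CLDN6, Het lay on the same side of wild type as KO.

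Of amnion and trophoblast genes 2 of 5 tested rose and 0 fell, TFAP2C from 2.18 to 4.96 FPKM and HEY1 from 0.255 to 1.04. Of neuromesodermal genes, which share T as a marker, 2 of 7 rose and 3 fell. In the same comparison, KO against wild type at day 3, 4.34% of all genes tested rose and 5.17% fell. RXRG rose from 1.62 to 5.16 FPKM and WNT3A from 0.331 to 1.74, while HES3 fell from 98.1 to 13.7 FPKM and CYP26A1, an enzyme that degrades retinoic acid, from 113 to 23.7. At day 3 Het stood at 4.58 FPKM in TFAP2C, 0.783 in HEY1, 1.29 in RXRG, 3.45 in WNT3A, 23.0 in HES3 and 42.0 in CYP26A1. In Het 1 of 5 and 1 of 7 tested rose, and 0 and 2 fell, beside 1.68% and 4.63% of all genes tested. The medians of these lists were 0.67 and 0.72. The neuromesodermal median includes CDX1, CDX2, CDX4 and NKX1-2, all under 1 FPKM in both groups. The summed level of that list was lower in KO (126 FPKM) than in wild type (371 FPKM).

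**Figure D4:**
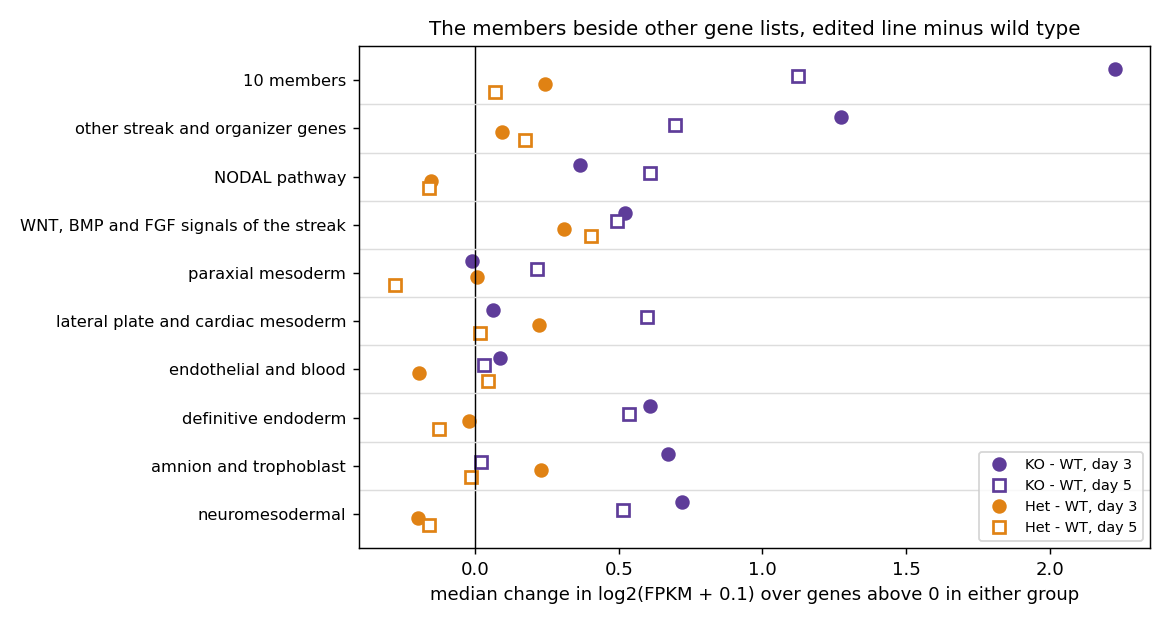
Median change of log2(FPKM + 0.1) (horizontal axis) for the 10 members and 9 other gene lists, KO minus wild type in purple and Het minus wild type in orange, day 3 as filled circles and day 5 as open squares. The members lie farthest to the right for KO at day 3 (2.23) and day 5 (1.13), and the medians cover genes above 0 in either group, tested or not.

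At day 5 in KO against wild type, 3 of 8 tested streak and organizer genes, 3 of 8 definitive endoderm genes and 3 of 14 endothelial and blood genes rose, and 1 of each list fell, beside the 7.58% and 5.68% of all genes tested. FOXA2, a factor of node and endoderm, rose from a listed 0 to 0.604 FPKM (q = 0.00126 in the authors' deposited table). HHEX rose from 0.170 to 1.67 FPKM, SOX7 from 0.481 to 1.80, LMO2 from 0.118 to 1.31 and GATA2 from 0.219 to 1.13. These 5 stood under 2 FPKM in KO, which does not hold for every listed gene that was higher in KO. OTX2 stood at 11.2 FPKM in wild type and 24.8 in KO, and DKK1 at 0.424 and 2.79. The falls were those of PRDM1 (3.30 to 1.14 FPKM), KIT, a receptor (8.79 to 3.35 FPKM), and TEK, the angiopoietin receptor (17.9 to 8.66 FPKM).

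Marker sums of other cell states also differed between groups, and did not all run the way of the streak genes. The summed level of 6 pluripotency markers was 731 FPKM in wild type, 620 FPKM in Het and 848 FPKM in KO at day 3, and 495, 392 and 341 FPKM at day 5. All 6 markers were at 1 FPKM or more in wild type and in KO at day 3, and NANOG was under 1 FPKM in Het. In KO against wild type at day 3, 1 of the 6 rose (NANOG) and 1 fell (SOX2, from 155 to 75.5 FPKM). Over all genes tested, 4.34% rose and 5.17% fell. The summed level of 4 neural progenitor markers was 44.5, 9.81 and 5.44 FPKM at day 3 and 36.6, 24.5 and 3.23 at day 5. The summed level of the crest and border markers was 104, 152 and 192 FPKM at day 3 and 127, 218 and 365 at day 5. The part of these differences in the levels of the 10 genes was not tested.

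MIXL1 lies on the long arm of chromosome 1, where levels in KO were raised over many genes. Among genes at 1 FPKM or more in both groups, the 576 on chromosome 1 beyond 130 Mb had a median log2 change of 0.60 in KO against wild type at day 3, and 12037 other genes one of -0.03. At day 5 the medians were 0.37 and -0.01, and in Het at day 3 they were 0.01 and -0.04. Within 1 Mb of MIXL1, 16 such genes had changes from -0.00 to 0.99 with a median of 0.59, and 5 of them rose. MIXL1 itself, at 0.219 FPKM in wild type, was below the minimum set for these neighbours, and its change of 5.42 was not called. ETV3L and MAP1LC3C, the closest genes to MIXL1 in pattern, are also on chromosome 1. The part of the regional rise in the level of MIXL1 was not tested. For T, EOMES and KDR the median changes of such neighbours were 0.04 (6 genes), -0.40 (3 genes) and 0.42 (7 genes), with 0 of them called.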

How the data were processed

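Poly-adenylated RNA of 16 libraries was sequenced. Reads were aligned with TopHat2 2.1.1 to hg19 and tested with Cuffdiff 2.2.1, per the submitters' processing notes; no annotation version or filter is named there. The authors' deposited table gives 23284 genes in 15 comparisons of 6 groups as FPKM per group. Its fold changes are deposited on the log2 scale. Its deposited score divides the fold change, on the natural log scale, by a standard error, which gives the SE used here. Its deposited p-value has a minimum of 5e-05, and its deposited q-value equals Benjamini-Hochberg adjustment over all 222234 tests to within 5.28e-07. Depth per sample is unknown.

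The group HOMO was read as KO, and 9 comparisons were used. A gene was called at a deposited q under 0.05. Medians used log2 of FPKM with a pseudocount of 0.1, which understates folds of low genes. Time courses were compared by a 2-sided normal test on the difference of log2 changes, with Benjamini-Hochberg adjustment over genes. A run on simulated data drew changes from the same SE that the test uses, so it could check the arithmetic but not the SE. Whether replicates are separate cultures is not stated, so p-values measure only the spread between these samples. The members, lists and motifs were chosen with earlier results of these data known. All 10 members were named, with up to 4 called genes of each list per comparison by size of change, and the 5 genes of most alike pattern for each member above 1 FPKM. DKK4, NANOG and TNFRSF11B were picked from the latter after their values were seen. Alternatives were a q under 0.01, adjustment within a comparison, a minimum of 1 FPKM, a pseudocount of 1, centred changes with scaled SE, and a normal reading of the test score, which was chosen after seeing the data. Python 3.11.15, numpy 2.4.6, pandas 2.3.3 and scipy 1.17.1 were used.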

Additional observations from a re-analysis of the deposited data

How the results depend on the processing

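No result turned its direction under any alternative run. Of 49 repeats of the members' counts and the time-course differences, 40 stayed within 1.5 times or on their side of the threshold, 8 fell below and 1 rose above. Under a q below 0.01, the members called numbered 1 in KO against Het at day 3 (main count 2), 0 in wild type over time (main count 1) and 2 in KO over time (main count 4). With adjustment over the comparison alone, KO against Het at day 3 had 1. With centred changes and SE scaled to the deposited p-values it had 4, MIXL1 and EOMES being gained. With at least 1 FPKM in a group, wild type over time had 0, since no member is left. With test scores read against a normal distribution, chosen after seeing the data, Het against wild type at day 3 and at day 5 and wild type over time each had 0. For KO against wild type at day 3, a q below 0.01 lost T and a minimum of 1 FPKM lost SOX17, which has no SE and could not be fitted under the scaled SE. In that comparison the centred changes with the SE of the authors' scores scaled gained MIXL1 (adjusted p = 3.01e-10) and EOMES (adjusted p = 7.19e-10) and kept T and KDR. The scaling made every SE smaller, so these adjusted p-values do not settle the uncalled state of MIXL1 and EOMES. A minimum of 1 FPKM leaves at most 4 members, and their median in KO against wild type at day 3 was 4.26. Centring moved no median by over 0.1, as the median change of expressed genes lay between -0.05 and 0.06. The causes of these differences were not tested. No paired analysis was possible because the deposited table holds 1 value per group, and no repeat without a replicate could be run for the same reason. The unknown depth limits every level under 1 FPKM.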
